A study of Mus musculus with 2 samples.

Results

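Coverage outside peaks was read along the 19 mouse autosomes in bins of 1 Mb, to describe steps of whole chromosomes and of long chromosome stretches in 3T3-L1 cells. The members were all 1 Mb bins from 5 Mb to the last read of each autosome, 2358 of the 2642 bins of 1 Mb on chromosomes 1 to 19, X and Y. Reads had a mapping quality of at least 30 (placed at a single best position with high confidence), were counted once per position and strand, and lay outside every peak of both deposited peak lists. Left out were 3 stretches with focal dense coverage, 106000001 to 119000000 of chromosome 10, 188000001 to 192000000 of chromosome 1 and 76000001 to 79000000 of chromosome 2 (build mm8, as all positions here). They were chosen by earlier results on the same reads. All 2358 members enter the account and no filter on low values was applied. The last bin of each chromosome is cut short by the chromosome end, which makes 19 partial and 2339 full bins.

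The libraries came from a chromatin immunoprecipitation with sequencing (ChIP-seq) for KDM4A, a demethylase of histone H3 lysines. 3T3-L1 is an established mouse preadipocyte line, derived from embryo fibroblasts, that turns into adipocytes under a hormone mixture. All cells were transfected and induced to differentiate. The siCTL library is from cells with a control siRNA. The siGPS2 library is from cells with siRNAs that target GPS2, which works within the corepressor complexes of NCoR and SMRT. The antibody was an anti-KDM4A antibody from Abcam, whose target the labels spell KMD4A, and no input library was used here. With 1 library per group no p-value is given and no difference has a replicate check.

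In a ChIP-seq library most fragments come from outside the bound sites, and over large bins their number follows the amount of DNA in the cells. It also follows how well reads can be placed, base composition and how open the chromatin is. Mouse chromosomes have their centromere at one end, so each autosome has a single long arm and a step inside it separates a centromere side from a telomere side. Immortal 3T3 lines are known for abnormal karyotypes, with gains and losses of whole chromosomes and parts of them. The level used below is the reads of a bin over the median bin of the same library, so a level of 1 is the middle of the autosomal bins and not a known number of copies. Each printed pair of values is siCTL first and siGPS2 second unless named.

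The members held 5083773 siCTL and 3812266 siGPS2 reads. The median bin held 2137 reads in siCTL and 1583 in siGPS2, so counting error alone gives a median bin a 95% Poisson interval of 0.958 to 1.04 in siCTL and 0.951 to 1.05 in siGPS2. Intervals cover counting error only and hold no spread between libraries, since each group has 1 library. The reads also carry no molecular identifiers. The spread across bins was far wider than that. The quartiles of all bins were 0.821 and 1.18 in siCTL and 0.802 and 1.21 in siGPS2. A bin was counted as high or low when its level lay at least 0.2 on the log2 scale from 1 in both libraries, which is a level of 1.15 or more, or 0.871 or less. By that limit 635 of the 2358 bins (26.9%) were high and 720 (30.5%) were low.

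Whole chromosomes differed in level, and both libraries gave nearly the same order. Chromosome 8 had the highest median level, 1.40 in siCTL and 1.39 in siGPS2. Chromosome 12 had the lowest, 0.818 and 0.815. The highest chromosome median was thus 1.71 times the lowest in siCTL and 1.71 times in siGPS2. Of the 19 autosomes, 15 had the same rank in both libraries, and the exceptions were neighbours that changed places, chromosomes 4 and 7 and chromosomes 6 and 15. No chromosome median differed between the libraries by more than 0.0601.

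**Figure D1:**
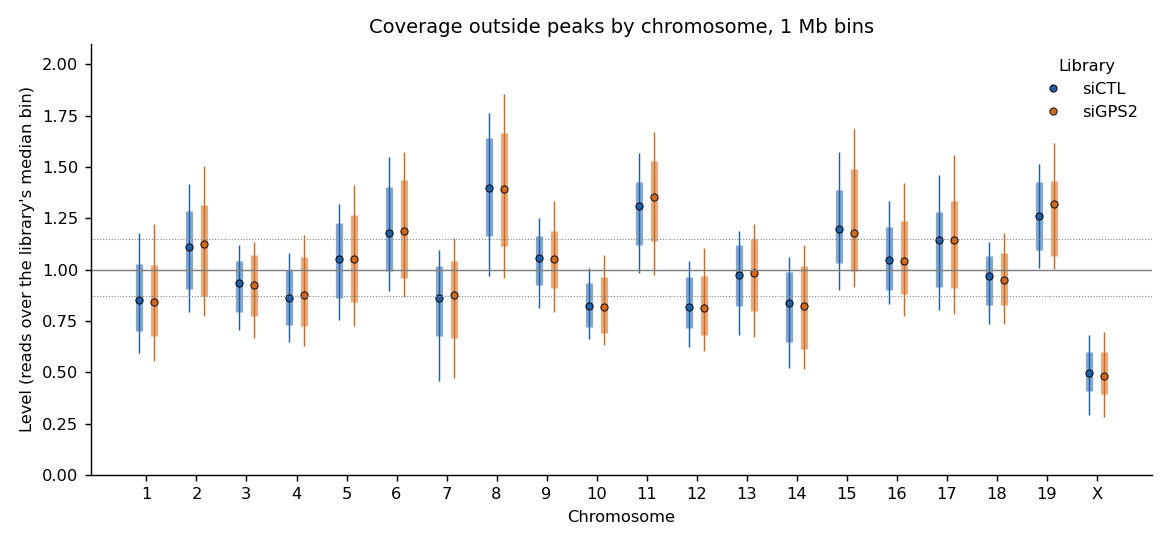
Level of the 1 Mb bins (reads over the library's median bin, linear axis) on each autosome and on chromosome X, for siCTL (blue) and siGPS2 (orange). Points are medians over bins, thick bars the quartiles, thin lines the 10th to 90th percentiles, and dotted lines mark levels of 1.15 and 0.871. Chromosome 8 stands highest at 1.40 and 1.39, and X lies at 0.496 and 0.484.

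Applied to chromosome medians, the same limit put 5 chromosomes above it (8, 11, 19, 15 and 6) and 4 below it (1, 14, 10 and 12), while the other 10 lay between. With the level taken from the mean bin in place of the median bin, 5 were above and 6 below. After chromosome 8 came chromosome 11 at 1.31 and 1.35 and chromosome 19 at 1.26 and 1.32. Chromosome 15 had medians of 1.2 and 1.18, and chromosome 6 had 1.18 and 1.19. On the low side chromosome 10 had 0.822 and 0.818, chromosome 14 had 0.838 and 0.821 and chromosome 1 had 0.851 and 0.841. These 4 low chromosomes did not stand apart from the next, chromosomes 4 (0.861 and 0.878) and 7 (0.864 and 0.877), which missed the limit in siGPS2 only.

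The middle of the order was close to 1. Chromosome 3 had medians of 0.934 and 0.927, chromosome 18 had 0.968 and 0.949 and chromosome 13 had 0.975 and 0.985. Chromosomes 16, 5 and 9 lay between 1.04 and 1.06 in both libraries. Chromosome 2 (1.11 and 1.12) and chromosome 17 (1.14 and 1.14) came just under the limit. Neighbours in this order overlapped widely in their bins. Of the 171 pairs of autosomes, 24 had quartile ranges that did not overlap in either library, and each such pair had chromosome 8 (8 pairs), 11 (8 pairs), 19 (6 pairs) or 15 (2 pairs) on its high side.

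On chromosome 8 the whole distribution of bins was shifted. Its quartiles were 1.17 and 1.64 in siCTL and 1.12 and 1.66 in siGPS2, and 89.1% of its 128 bins in siCTL and 87.5% in siGPS2 lay above 1. Its 10th percentile bin was 1.42 times the 10th percentile of all autosomal bins in siCTL and 1.46 times in siGPS2. Its 90th percentile bin was 1.26 times that of all autosomal bins in siCTL and 1.28 times in siGPS2. Both the sparse and the dense bins of chromosome 8 were therefore above those of the autosomes as a whole. It also had the most merged peaks per Mb, 2.02, where the other autosomes had between 0.279 and 1.0. Reads inside those peaks are not in the levels.

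Chromosomes 11 and 19, known as gene-dense chromosomes, had a different distribution. Their 10th percentile bins stood high, at 1.44 and 1.481 times that of all bins for chromosome 11, and at 1.47 and 1.52 times for chromosome 19. Their 90th percentile bins were at 1.12 and 1.15 times that of all bins for chromosome 11, and at 1.08 and 1.11 times for chromosome 19. Chromosome 19 had the largest share of bins above 1, 93.0% in siCTL and 91.2% in siGPS2. Chromosome 10 was the reverse case. Its 10th percentile was close to that of all bins (0.971 and 0.964 times) and its 90th percentile was the lowest of the autosomes (0.723 and 0.736 times), with 11.6% and 17.0% of its bins above 1. Taken from the 10th percentile bin, 9 chromosomes passed the limit upwards and 3 downwards. Taken from the 90th percentile bin, 1 passed upwards, chromosome 8, and 9 downwards.

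The share of reads with high mapping quality moved with the level on most of the chromosomes called. This share is the reads of the level over all reads of a bin outside peaks, so share and level are not independent. Its medians for chromosomes 11, 19, 15 and 8 were 90.8%, 90.4%, 89.3% and 88.7%, and for chromosome 6, also called high, 85.9%. Chromosomes 2 and 9, not called, had 89.1% and 88.9%. For chromosomes 12, 14, 1 and 10 they were 83.4%, 83.9%, 84.2% and 85.2%. Its part in the chromosome levels was looked at in the 764 bins with a share of at least 90%, each level taken over the median of those bins. There chromosome 8 had 1.37 and 1.36 (53 bins), almost as in all bins. Chromosome 6 had 1.2 and 1.19 (47 bins). Chromosome 15 had 1.147 and 1.18 (43 bins), just under the limit of 1.1487 in siCTL. Chromosome 11 came down to 1.15 and 1.17 (66 bins) and chromosome 19 to 1.12 and 1.1 (31 bins). On the low side chromosome 10 had 0.807 and 0.835 (28 bins) and chromosome 7 had 0.835 and 0.837 (52 bins). Chromosome 14 had 0.851 and 0.866 (30 bins), while chromosome 1 rose to 0.932 and 0.940 (37 bins). Chromosome 12 kept only 17 such bins, at 0.852 and 0.901. No genome sequence of the files' build was used here, so base composition was not measured and its part in these levels was not tested.

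Reads of lower mapping quality, 10 to 29, are a separate set that the levels above do not use, with a median of 45 reads per bin in siCTL and 35 in siGPS2. In them chromosome 8 had medians of 1.37 and 1.29, chromosome 11 had 1.2 and 1.2 and chromosome 19 had 1.44 and 1.43. Chromosome 17, not called in the members, was high as well at 1.33 and 1.34. Chromosome 10 was lowest at 0.622 and 0.586, and chromosomes 7 (0.778 and 0.8) and 4 (0.844 and 0.857) were also below the limit. Chromosomes 12 (1.09 and 1.01), 1 (0.978 and 0.971) and 14 (0.956 and 1.0) were not low there, chromosome 15 (1.07 and 1.2) and chromosome 6 (1.18 and 1.14) missed the limit in 1 library, and chromosome 16 was low at 0.722 and 0.686. These reads were looked at after the levels of the members were seen.

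Chromosome X, outside the members, gives a point of comparison. Its 161 bins, cut the same way, had medians of 0.496 and 0.484, with quartiles of 0.409 and 0.598 in siCTL and 0.393 and 0.599 in siGPS2. Its upper quartile lay below the first quartile of every autosome in both libraries. Its median share of reads with high mapping quality, 71.3%, was also below that of every autosome. The left-out stretches reached levels above the members, up to 17.4 and 18.5 for chromosome 10, 4.87 and 4.94 for chromosome 1, and 3.00 and 3.17 for chromosome 2.

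Within chromosomes the level moved up and down in stretches of a few Mb. Neighbouring bins resembled each other, with a Pearson correlation of log2 levels (limited to 0.5 to 2 before the log, each taken from its chromosome's mean) of 0.62 in siCTL and 0.64 in siGPS2 over 2317 pairs of bins 1 Mb apart. At 5 Mb it was 0.10 and 0.12 over 2232 pairs, and at 20 Mb 0.01 and 0.02 over 1953 pairs. These are descriptions across bins of the same libraries, which share depth and base composition. Chromosome identity took up 33.0% of the variance of these limited log2 levels over bins in siCTL and 29.3% in siGPS2. Most of the variance lay inside chromosomes.

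To find steps, levels were limited to 0.5 to 2, so that bins nearly without reads count as 0.5, and segment levels below are geometric means of these limited levels. The log2 levels averaged over both libraries were divided into segments of at least 10 bins by least squares, and neighbouring segments were joined until every step was at least 0.2 (log2, 1.15-fold) with the same sign in each library. This left 65 steps, 40 upwards and 25 downwards going from the centromere side to the telomere side, and 84 segments with a median length of 21 bins. The segments took up 58.9% of the variance in siCTL and 57.3% in siGPS2. Steps were found on 16 chromosomes, and chromosomes 10, 18 and 19 had none. Each step was placed again in each library alone with bins of 100 kb, within 3 Mb of the shared step. Of the 65 steps, 34 fell on the same 100 kb boundary in both libraries. Within 100 kb of each other lay 52, while 6 were placed more than 1 Mb apart. The steps of chromosome 2 at 171000001, chromosome 3 at 82000001 and chromosome 8 at 15000001 ended at the 3 Mb limit in both libraries. They are among the 34, and there the limit fixed the match. A single library reached the limit on chromosomes 4 (114000001), 6 (139000001), 8 (63000001), 12 (28000001) and 16 (39000001).

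**Figure D2:**
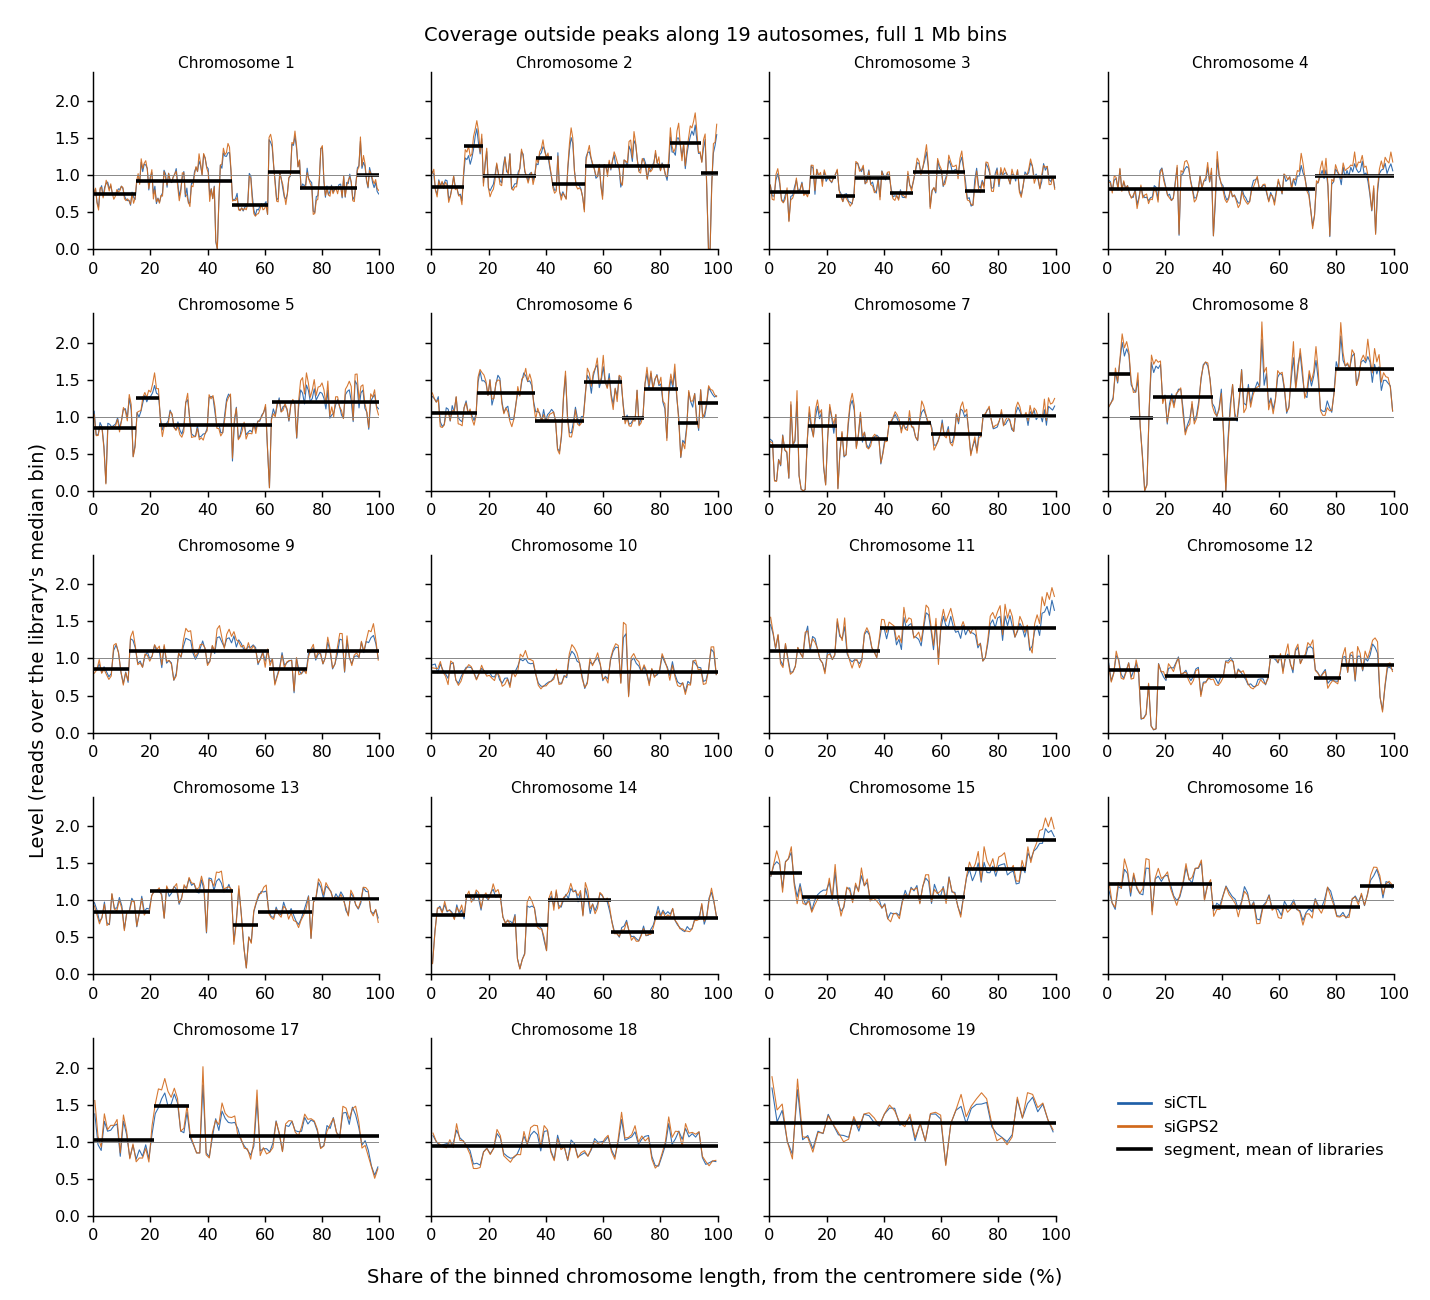
Level of each full 1 Mb bin along the 19 autosomes (y axis, linear) against the share of the binned chromosome length from the centromere side in percent (x axis), siCTL in blue, siGPS2 in orange and segment means over both libraries in black. The libraries follow each other bin by bin, chromosomes 10, 18 and 19 form a single segment each, and chromosome 15 ends in a segment at 1.77 and 1.85.

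Most steps went back again. Of the 49 pairs of consecutive steps on a chromosome, 44 had opposite signs. The share of reads with high mapping quality was higher on the high side of 63 of the 65 steps. Over all steps the median difference was 7.94 percentage points. The reads of the level are the ones counted in this share, which by itself makes the share tend to rise with the level. Segments with a level of at least 1 in both libraries (36 of 84) had a median share of 90.7%, and the other 48 had 83.4%. With reads of any mapping quality, the median step was 0.24 in siCTL and 0.30 in siGPS2 in place of 0.39 and 0.44. There 44 of the 65 steps were still at least 0.2 in both. With a mapping quality of at least 40 the median step was larger, 0.495 in siCTL and 0.557 in siGPS2, and all 65 were at least 0.2 in both. In the separate reads of mapping quality 10 to 29, by mean reads per bin, 24 of the 65 steps had the same sign in both libraries as in the members, 37 had the opposite sign in both and 4 were split. With levels limited to 0.5 to 2 as for the segments, 9 of the 65 steps had their sign and a size of at least 0.2 in both libraries there.

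Long steps were fewer. A step with at least 30 bins in the segment on each side was counted as arm-length, a limit chosen after the segments were seen, and 4 steps passed it, on chromosomes 4, 5, 11 and 16. On chromosome 11 the level rose from 1.11 and 1.1 over the first 45 bins to 1.37 and 1.45 over the following 71, a step of 0.31 in siCTL and 0.39 in siGPS2. Both libraries placed it at 49500001. On chromosome 5 the level rose from 0.894 and 0.874 (58 bins) to 1.17 and 1.23 (55 bins), a step of 0.39 and 0.49 that both libraries placed at 96400001. The lowest of the 3 bins before 97000001 was nearly without reads, at 0.0426 and 0.0404. Whether it set the placing was not tested.

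On chromosome 4 the first 109 bins had levels of 0.812 and 0.808 and the last 41 bins 0.951 and 1.01. That step, 0.23 and 0.33, was placed at 111200001 in siCTL. In siGPS2 the placing stopped at 111000001, the limit of the 3 Mb searched, and gives no boundary. The 3 bins before 114000001 were sparse, at 0.314 to 0.531 in siCTL and 0.277 to 0.529 in siGPS2. Chromosome 16 went the other way, from 1.2 and 1.23 over 34 bins down to 0.931 and 0.892 over 48 bins, a change of −0.37 and −0.46. It was placed at 38700001 in siGPS2. In siCTL the placing stopped at 36000001, the limit of the 3 Mb searched, and gives no boundary. The level came back to 1.18 and 1.21 in the last 11 full bins. By the same limited levels in the reads of mapping quality 10 to 29, the steps of chromosome 4 (0.89 and 0.77) and chromosome 5 (0.27 and 0.29) kept their sign, while those of chromosome 11 (−0.17 and −0.10) and chromosome 16 (0.36 and 0.33) had the opposite one.

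A single division of each chromosome, with at least 25% of its bins on each side, described long stretches without short segments. This division need not fall at a step, and on chromosomes 2 and 8, among others, it lay inside a segment. It was chosen after the segments were seen. On 10 chromosomes the sides differed by at least 0.2 (log2) in both libraries, 8 with the telomere side higher and 2 with it lower. In all of these 10 the 10th and the 90th percentile bins differed in the same direction as the mean in both libraries. The divisions were placed on these same bins to set the sides apart, which favours such a match. Among the chromosomes under the limit it was also seen on all but chromosomes 6, 17 and 18. The division took up between 2.91% of the variance of a chromosome (chromosome 17) and 47.0% (chromosome 15). On every autosome most of the variance was left within the sides.

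**Figure D3:**
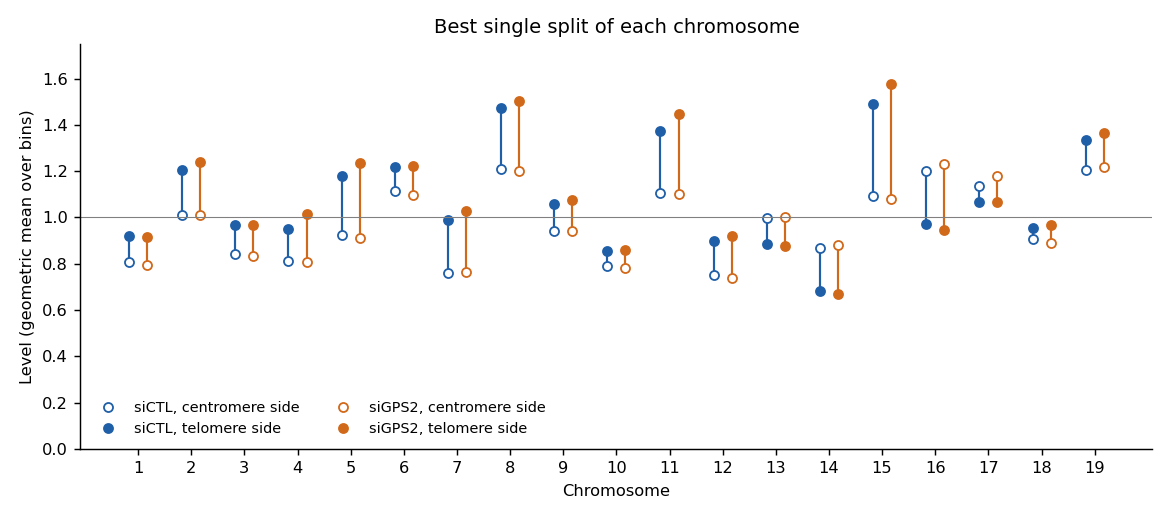
Level (geometric mean over bins limited to 0.5 to 2, linear axis from 0) on the centromere side (open points) and the telomere side (filled points) of the best single division of each autosome, siCTL in blue and siGPS2 in orange. The telomere side is higher on 15 of the autosomes, most on chromosome 15 (1.09 to 1.49 in siCTL), and lower on chromosomes 13, 14, 16 and 17.

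Chromosome 15 had the largest difference of sides, 1.09 against 1.49 in siCTL and 1.08 against 1.58 in siGPS2, divided at 72000001. Its 10th percentile bin rose from 0.856 to 1.26 in siCTL, and its 90th percentile bin from 1.35 to 1.86. The rise came in a pair of steps, to 1.38 and 1.47 from 72000001 and to 1.77 and 1.85 from 93000001, the highest segment of all autosomes in both libraries. The first 11 bins of the chromosome were high as well, at 1.37 and 1.37, so that the middle 56 bins, at 1.05 and 1.03, were the low part. High mapping quality shares were 89.6%, 86.3%, 91.9% and 92.8% in these 4 segments, in order.

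Chromosome 7 rose by this division from 0.758 and 0.765 to 0.991 and 1.03 at 109000001. Its centromere side held the segment from 5000001 to 24000000, at 0.607 and 0.612, where the median share of high mapping quality was only 55.9%. On chromosome 14 the telomere side from 79000001 was lower, 0.869 against 0.683 in siCTL and 0.881 against 0.670 in siGPS2. It contained a low segment, from 79000001 to 97000000, at 0.575 and 0.561, with a high mapping quality share of 71.1%. Chromosome 2 rose from 1.01 to 1.21 in siCTL and 1.24 in siGPS2 at 124000001, and chromosome 12 from 0.753 and 0.740 to 0.898 and 0.920 at 70000001.

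Chromosome 8 also rose along its length, from 1.21 and 1.2 to 1.475 and 1.504 at 70000001. Its 6 segments began at 1.57 and 1.59 over the first 10 bins and ended at 1.62 and 1.67 over the last 26. Between them lay segments at 0.979 and 0.995 (15000001 to 25000000), 1.27 and 1.26, 0.982 and 0.951 (52000001 to 63000000) and 1.37 and 1.37. The low segment from 15000001 held bins nearly without reads, with a 10th percentile level of 0.0838 and 0.0677. Its median bin was at 1.22 and 1.23. No segment of chromosome 8 had a level under 0.95 in either library.

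The other chromosomes with several steps went up and down. Chromosome 1 had 6 segments, of which the lowest, from 96000001 to 120000000, was at 0.616 and 0.589 and was followed directly by the highest, from 120000001 to 141000000, at 1.04 and 1.04. With levels limited to 0.5 to 2, that step was 0.75 and 0.82. The step down on chromosome 14 at 79000001 was −0.79 and −0.86. Chromosome 6 had 7 steps and ran between 0.923 and 0.902 (129000001 to 139000000) and 1.45 and 1.47 (82000001 to 101000000). Chromosome 2 also had 7 steps, with high segments from 25000001 to 36000000 at 1.34 and 1.44 and from 152000001 to 171000000 at 1.40 and 1.47.

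Chromosome 3 had 7 steps as well, but a narrow range, from 0.731 and 0.707 to 1.03 and 1.05. Chromosome 9 held long segments of 58 bins at 1.09 and 1.11 and of 30 bins at 1.08 and 1.11, with lower segments of 15 and 16 bins at 0.86 and 0.85. On chromosome 17 the 11 bins from 24000001 to 35000000 stood at 1.44 and 1.55, between 1.01 and 1.03 on one side and 1.08 and 1.09 over the last 60 bins. Chromosome 13 fell from 1.12 and 1.14 to 0.667 and 0.667 at 61000001. The low segment there had a high mapping quality share of 55.4%, and that on chromosome 12 from 18000001 to 28000000 (0.598 and 0.604) had 24.0%. Without the limit of 0.5 the median bin of that chromosome 12 segment was at 0.224 and 0.217, below the median bin of every other segment. With reads of any mapping quality, the steps out of both these low segments changed sign in both libraries.

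Each chromosome was also scaled to its own median and divided into 10 parts of equal length. Levels tended to be higher towards the telomere end, but not in a steady rise. In the last part, at the telomere end, the median over chromosomes was 1.07 in siCTL and 1.14 in siGPS2, and 15 of the 19 chromosomes were above their own median there in each library. In the second part from the centromere side, the lowest of the 10, it was 0.923 and 0.900, with 4 of 19 chromosomes above. The part at the centromere side itself had 0.964 and 0.937, with 9 and 8 chromosomes above. Between the ends it went up and down, with 1.03 and 1.01 in part 4 and 0.964 and 0.951 in part 6. The range over chromosomes was wide in the last part, from 0.788 to 1.47 in siCTL and from 0.793 to 1.66 in siGPS2.

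Single bins set the limits of the range. Among bins with at least 80% of reads of high mapping quality, the 10 with the highest mean level were 6 bins of chromosome 8 and 4 of chromosome 15. The highest, chromosome 8 from 108000001 to 109000000, had 4468 siCTL and 3598 siGPS2 reads, levels of 2.09 and 2.27. The next, chromosome 8 from 73000001 to 74000000, had levels of 2.05 and 2.28. The 4 bins of chromosome 15 lay next to each other from 99000001 to 103000000, at 1.86 to 1.97 in siCTL and 1.96 to 2.12 in siGPS2. Of the 10 highest bins, 7 had levels below 1 in both libraries in the reads of mapping quality 10 to 29, the first of them at 0.711 and 0.657. Of the 10 lowest bins with at least 80% of reads of high mapping quality, 5 were partial last bins, which span less than 1 Mb. The lowest full bins among these were chromosome 5 from 25000001 to 26000000 (0.464 and 0.459), chromosome 13 from 92000001 to 93000000 (0.486 and 0.483) and chromosome 12 from 42000001 to 43000000 (0.513 and 0.486). The other 2 full bins were chromosome 4 from 78000001 (0.635 and 0.606) and chromosome 12 from 93000001 (0.664 and 0.598).

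The design asks what GPS2 siRNA changes, and at this scale the libraries were close. Across the 2352 bins with reads in both, the log2 levels had a Pearson correlation of 0.994, a description over bins that share their sequence. With reads scaled to the member totals, siGPS2 over siCTL ran over chromosomes from 0.982 on chromosome 1 (95% exact conditional interval 0.977 to 0.987) to 1.03 on chromosome 11 (1.02 to 1.03). The interval lay above 1 on 5 chromosomes and below 1 on 7. For chromosome 8 the ratio was 1.002 (0.997 to 1.007). Every such interval compares these 2 libraries and not the conditions.

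A bin was called different when its ratio was at least 1.1-fold from 1 and its interval excluded 1. By that rule 54 bins (2.29%) were higher in siGPS2 and 89 (3.77%) were lower, together 6.06% of the 2358, and none of these reached 1.2-fold. Chromosome 1 held 20 of the lower bins and none of the higher, and chromosome 4 held 11 of the higher and 4 of the lower. The largest fold higher was on chromosome 17 from 25000001 to 26000000, with 3123 against 2715 reads and a ratio of 1.16 (1.1 to 1.22). Next were chromosome 4 from 151000001 (1.15), chromosome 14 from 45000001 (1.15), chromosome 7 from 36000001 (1.15) and chromosome 10 from 79000001 (1.14). The largest fold lower was on chromosome 15 from 46000001 to 47000000, with 1773 against 1120 reads and a ratio of 0.842 (0.781 to 0.908). After it came chromosome 16 from 60000001 (0.865), chromosome 17 from 19000001 (0.866), chromosome 1 from 66000001 (0.866) and chromosome 1 from 81000001 (0.867).

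These differences went with the level. The bins called higher had a median level of 1.25 in siCTL and 1.42 in siGPS2, and those called lower 0.753 and 0.682. To keep the class of a bin apart from the reads that measured it, classes and ratios were taken from different strands. The 1832 full bins with at least 80% of reads of high mapping quality were ranked on plus-strand reads into 10 classes of equal size. The ratio was taken on minus-strand reads, scaled to their totals over these bins and not to the member totals. The ratio was 0.952 (0.944 to 0.959) in the lowest class, 0.995 (0.989 to 1.002) in the fifth and 1.04 (1.034 to 1.045) in the highest. With the strands exchanged it was 0.95 (0.942 to 0.957) in the lowest class and 1.03 (1.029 to 1.04) in the highest. In these bins the scaled ratio was below 1 in the sparsest class and above 1 in the densest. The class at which the ratio passes 1 depends on this scaling. Bins with a lower share of high mapping quality, 518 in all, are not in the classes. In the sparse segment of chromosome 12 from 18000001 to 28000000 the ratio, scaled to the member totals, was 1.007. It is therefore not on the same scale as the class ratios.

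**Figure D4:**
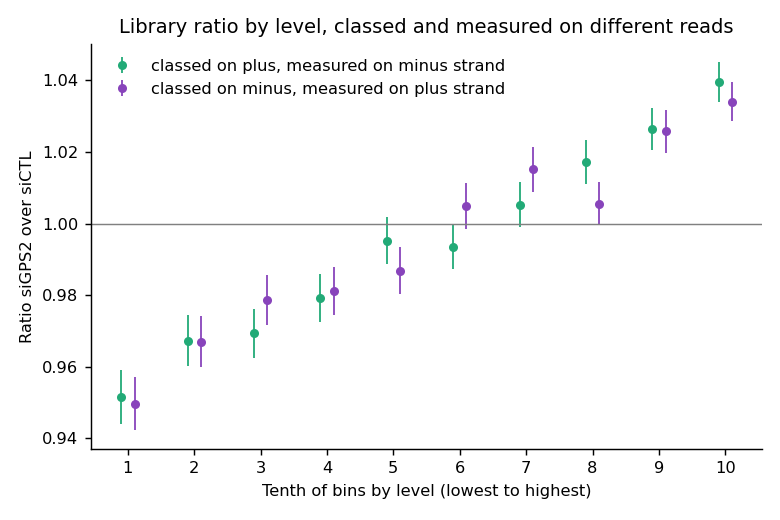
Ratio siGPS2 over siCTL of scaled reads (y axis, not from 0) in each of 10 classes of 1832 bins ordered by level (x axis, lowest to highest), with 95% exact conditional intervals. Reads were scaled to the totals of these bins on the measured strand. Bins were classed on one strand and measured on the other, and in both settings the ratio is about 0.95 in the lowest class and 1.03 or 1.04 in the highest.

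The same was seen at the steps. The size of a step was larger in siGPS2 at 59 of the 65 steps, with a median of 0.44 on the log2 scale in siGPS2 and 0.39 in siCTL. The 6 exceptions were both steps at the low segment of chromosome 12 from 18000001, the steps of chromosome 8 at 15000001 and 25000001, that of chromosome 13 at 71000001 and that of chromosome 15 at 93000001. Flow-cell tiles with more than 100000 reads from each library numbered 14. In the earlier 7 of these, 58 of 65 steps were larger in siGPS2, and in the later 7 tiles 60 were. With siCTL thinned to the depth of siGPS2 it was 59. These are parts of the reads in which the steps were found, so they are not a separate check of the first count. In the separate reads of mapping quality 10 to 29 the step was larger in siGPS2 at 44 of 65, with a reversed step counted as negative. At the single divisions, which use the same bins, all 19 chromosomes had a larger difference of sides in siGPS2. The standard deviation of the limited log2 levels over bins was 0.40 in siCTL and 0.44 in siGPS2. In the 1832 bins the log2 ratio had a standard deviation of 0.07, against 0.05 from counting error, and squared deviations were on average 2.47 times the binomial variance. Whether a second pair of libraries would show the same difference in range was not tested, since each group has 1 library.

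**Figure D5:**
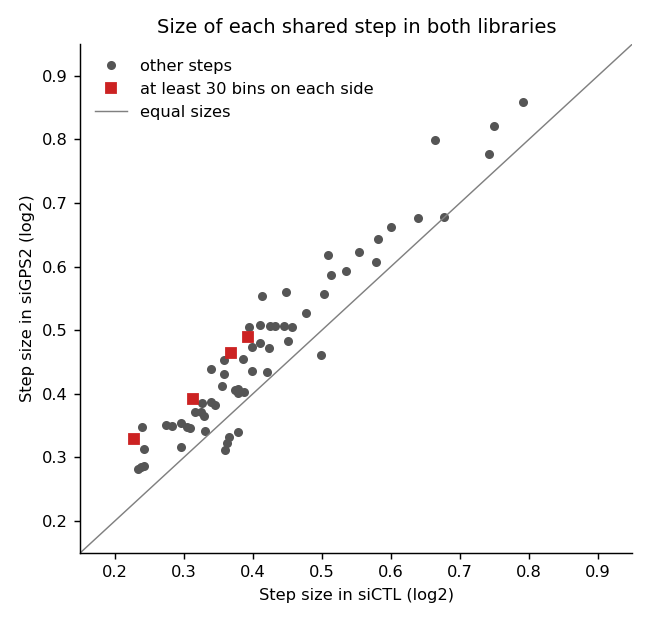
Size of each of the 65 shared steps (absolute log2 difference of mean level between neighbouring segments) in siCTL (x axis) and siGPS2 (y axis), with the 4 arm-length steps as red squares and a grey line of equal sizes. Points lie above the line at 59 of the 65 steps.

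Bins with a higher level also held more merged peaks, whose reads the levels leave out. In the classes ranked on plus-strand reads, the mean number of merged peaks per bin was 0.272 in the lowest, 0.328 in the fifth and 1.51 in the highest. The median share of reads with high mapping quality, which counts the reads of the level, rose along the same classes from 83.1% to 93.4%. At the steps the side with the higher level had more merged peaks per Mb in 42 of 65 cases. In all, 1670 merged peaks had their centre in a member bin.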

How the data were processed

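Per library, the authors deposited 1 file of aligned reads and 1 list of peaks. The reads carry a deposited mapping quality score, a whole number per read with no normalization, and counts used here are numbers of such lines. By their values, the other deposited files hold starts and ends of peaks, separately for each library. The submitters' processing notes list Bowtie, HOMER and mm8 and give no role for them; versions are not given in the sources used here. Incomplete lines, 3 in siCTL and 6 in siGPS2, were not used.

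A read was put in the bin of its 5 prime base. Reads inside peaks were 0.291% (siCTL) and 0.303% (siGPS2) of autosomal reads of mapping quality 30 or more. For segments, levels were limited to 0.5 to 2. The penalty per step was 5 ln(n) noise variances, with a noise of 0.15 (log2) from adjacent bins, and partial last bins were left out. Steps were placed again with 100 kb bins within 3 Mb, using 10 Mb on each side. Ratios carry exact conditional (Clopper-Pearson) 95% intervals and sums Poisson intervals. Python 3.11.15, numpy 2.4.6 and scipy 1.17.1 were used, and the segmentation and intervals were tested on simulated data. The simulated noise was independent between bins, and the simulated ratios held counting error only. In these libraries neighbouring bins resembled each other and ratios spread beyond counting error. The simulation therefore does not check the number of steps or of bins called here. Named were all chromosomes, steps with their segments, the 10 highest and 10 lowest bins and the 5 largest folds each way. The members and rules were chosen with earlier results of these data known. The reads of mapping quality 10 to 29, the bins with at least 90% of reads of high mapping quality, the single divisions, the arm-length limit and the strand-split classes were chosen after seeing the data. Alternatives covered mapping quality, repeated positions, peaks, bin width, scaling, depth, strand, tile and segment settings.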

Additional observations from a re-analysis of the deposited data

How the results depend on the processing

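Under the 20 alternatives tried for chromosome medians, chromosome 8 was called higher in all. Chromosomes 11 and 19 were called higher in all but the one that used the 90th percentile bin, and chromosome 10 was called lower in all but the one that used the 10th percentile bin. Chromosome 12 lost its low call with the 10th percentile bin and in reads of mapping quality 10 to 29, where its level passed to the other side of 1. The other 8 chromosomes called stayed on their side of 1, except that chromosome 14 reached 1.0 in siGPS2 in the same reads. With the main setting counted, chromosomes 1 and 15 were called in 17 of 21 settings, and chromosomes 14 and 6 in 18. In bins with at least 80% of reads of high mapping quality chromosomes 1, 14 and 15 lost their call. Chromosomes 1 and 14 lost it with reads of any mapping quality, and chromosomes 1, 6 and 15 with a limit of 0.25. The number of chromosomes called ranged from 6, in bins with at least 80% of reads of high mapping quality or with a limit of 0.25, to 13 with a limit of 0.15. The 65 steps became 41 with reads of any mapping quality, 43 in bins with at least 80% of reads of high mapping quality, 40 with segments of at least 20 bins and 34 with a penalty of 10 ln(n). The construction of the last 2, longer segments and a higher price per step, allows fewer steps, and the cause of the others was not tested. With each library divided alone, 48 steps matched within 3 bins. The 143 bins that differed between libraries became 86 with reads of any mapping quality and 467 of 4705 with bins of 500 kb. They became 231 and 234 on the plus and minus strand alone, 246 and 218 in the earlier and later 7 tiles, and 0 with a fold of at least 1.2. The cause was not tested.

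In the reads of mapping quality 10 to 29, which are few and separate from those of the members, the level of chromosome 12 turned to 1.09 and 1.01, and of the 130 step sizes (65 in each library) 71 changed sign. Those sizes (log2, from levels limited to 0.5 to 2, siCTL before siGPS2) follow. Sizes by mean reads per bin differ, as on chromosome 1 at 178000001, with −0.352 and −0.358. On chromosome 1 the sizes there were 0.0878 and 0.0757 at 141000001 and −0.0151 at 178000001 (siCTL alone). For chromosome 2 they came to 0.285 and 0.146 at 36000001, 0.424 and 0.322 at 81000001, −0.277 and −0.362 at 101000001 and 0.0129 at 171000001 (siGPS2 alone). Chromosome 3 had 0.00330 at 41000001 (siCTL alone), −0.0537 and −0.00574 at 51000001, 0.375 and 0.217 at 110000001 and −0.391 and −0.385 at 121000001. On chromosome 5 the sizes there were −0.587 and −0.499 at 27000001 and 0.399965 and 0.359 at 39000001. For chromosome 6 they came to 0.316 and 0.2997 at 57000001, −0.307 and −0.334 at 82000001, 0.652 and 0.746 at 101000001, −0.713 and −0.777 at 112000001, 1.095 and 1.11 at 129000001 and −0.384 and −0.277 at 139000001. Chromosome 7 had 0.229 and 0.139 at 84000001 and −0.704 and −0.648 at 109000001. On chromosome 8 the sizes there were 0.959 and 0.818 at 15000001 and −0.781 and −0.776 at 106000001. For chromosome 11 they came to −0.173 and −0.101 at 50000001. Chromosome 12 had 0.582 and 0.682 at 18000001, −0.389 and −0.517 at 28000001, −0.186 and −0.171 at 70000001 and 0.385 and 0.402 at 88000001. On chromosome 13 the sizes there were −0.787 and −0.701 at 28000001, 0.965 and 0.977 at 61000001 and −0.697 and −0.679 at 71000001. For chromosome 14 they came to −0.152 and −0.176 at 19000001, 0.958 and 1.08 at 34000001, −0.481 and −0.404 at 53000001, 0.977 and 0.842 at 79000001 and −1.09 and −1.14 at 97000001. Chromosome 15 had −0.0173 and −0.179 at 93000001. On chromosome 16 the sizes there were 0.359 and 0.333 at 39000001. Of the highest and lowest bins, levels crossed 1 there, to 0.711 and 0.657 at 108000001, 0.444 and 0.6 at 11000001, 0.489 and 0.486 at 13000001 and 0.644 and 0.743 at 120000001 on chromosome 8, to 0.778 and 0.8 at 99000001, 0.4 and 0.4 at 101000001 and 0.733 and 0.743 at 100000001 on chromosome 15, to 1.24 and 1.49 at 25000001 on chromosome 5. Ratios siGPS2 over siCTL crossed 1 there in 4 named bins, to 0.971 on chromosome 17 at 25000001, 0.870 on chromosome 14 at 45000001, 0.994 on chromosome 10 at 79000001, 1.04 on chromosome 17 at 19000001.

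With reads of any mapping quality, the step on chromosome 2 at 171000001 turned to 0.00500 in siCTL, that on chromosome 12 at 18000001 to 0.00634 in siGPS2, that on chromosome 12 at 28000001 to −0.0591 and −0.128, and that on chromosome 13 at 71000001 to −0.169 and −0.182 (siCTL and siGPS2, log2). Per base covered, levels of partial last bins were 2.49 in siCTL on chromosome 9 (3 reads, with none in siGPS2), 1.09 and 1.28 on chromosome 4, 1.23 and 1.40 on chromosome 7, 1.22 and 1.2 on chromosome 16 and 1.16 and 1.13 on chromosome 6. Reads of mapping quality 10 to 29, tiles, the percentile bins, the left-out stretches and the partial bins were alternatives chosen after seeing the data. A GC correction was not run, since no genome of the files' build was used here, and without an input library levels are not tied to DNA amount. No paired analysis was possible because each group has 1 library.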
